A study of Mus musculus with 24 samples.

Results

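The 8 genes described here encode enzymes that make bile acids from cholesterol in the liver: Cyp7a1, Cyp8b1, Cyp7b1, Cyp27a1, Cyp39a1, Akr1d1, Hsd3b7 and Baat. They were chosen by name, as the gene IDs of the count table that map to these symbols, and all 8 were found among 78298 gene IDs. RNA sequencing counted transcripts in liver tissue of 24 mice, with 1 library per mouse. The groups were 6 normal controls and a steatohepatitis model of 18 mice, that is, mice with a fatty and inflamed liver. The labels name only the groups and the tissue, so what induced the disease, for how long, and the strain and age of the animals are unknown here. Sex is not labelled either, but transcripts had a male pattern in every library, as given below. Nothing in the labels divides the 18 model mice further.

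Bile acids are detergents that the hepatocyte makes from cholesterol and secretes into bile. In the classical route Cyp7a1 hydroxylates the steroid ring of cholesterol first, and Cyp8b1 adds the 12-hydroxyl group that turns the product towards cholic acid. In the alternative route Cyp27a1 first oxidises the sterol side chain in mitochondria and Cyp7b1 then hydroxylates the ring of the oxysterol, while Cyp39a1 does so for another oxysterol. Hsd3b7 and Akr1d1 reshape the ring in both routes, and Baat joins the finished acid to taurine or glycine. Bile acids returning to the liver repress Cyp7a1 through the receptor FXR (Nr1h4) and its target SHP (Nr0b2), and through the intestinal hormone Fgf15, which acts on Fgfr4 with its partner Klb.

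Library totals lay between 31600129 and 58413267 counts, and levels are given as CPM, counts relative to the library total scaled by TMM factors, which correct for a few abundant genes taking a larger share of some libraries. These factors were 0.843 ± 0.0285 in controls (SD, n = 6) and 1.06 ± 0.061 in model mice (SD, n = 18), so with library totals alone the fold change of the median gene moves from 0.01 to 0.34 on the log2 scale. Hepatocyte markers were present in every library and 12 of 17 fell in the test given below, which called 28.8% of all genes lower and 31.2% higher, with summed levels of 173130 to 246635 CPM in controls and 99090 to 160163 CPM in model mice. All 9 macrophage markers rose (summed 32.4 to 75.0 CPM in controls and 179.9 to 962 CPM in model mice). So did 4 of 6 Kupffer cell, 8 of 8 stellate, 6 of 7 endothelial, 7 of 7 lymphocyte and 3 of 8 cholangiocyte markers. No marker was at 0 in all libraries, and in bulk tissue fewer cells of a type and less RNA per cell cannot be told apart. Clock genes also differed: an index of them was -3.77 to -1.14 in 5 controls, 1.68 in control 6 and -0.09 to 1.30 in model mice. Y-linked genes had counts in every library (Eif2s3y 25.5 to 52.7 CPM). The part of these differences in the results below was not tested. Some results are also given with library totals alone or with the clock index in the fit. Apart from control 6 the index divides the groups completely, so a fit with it cannot separate clock from group.

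Of the 7 enzyme genes that could be tested, 5 fell in the model livers: Cyp8b1, Cyp7b1, Cyp27a1, Cyp39a1 and Baat. In each of these 5, all 18 model mice lay below all 6 controls in TMM-scaled CPM. Relative to library totals alone, the groups overlapped for Cyp8b1 and Baat, as given below. Cyp7a1 and Akr1d1 did not pass the test, and no member rose. The test was edgeR's quasi-likelihood test with Benjamini-Hochberg adjustment over 17456 genes, with a threshold of 0.05. It called 60.0% of all genes, 28.8% of them lower and 31.2% higher, and the members' 5 of 7 is to be read against these shares. A complete separation with every model mouse below every control was found for 6.02% of all genes, and with every model mouse above every control for 9.67% of all genes and for no member. The median log2 fold change of the 7 members was -0.96, against 0.01 for all genes tested. Of the 17 hepatocyte markers 12 also fell, with a median of -0.40. The count of members that fell is thus not particular to these enzymes.

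**Figure D1:**
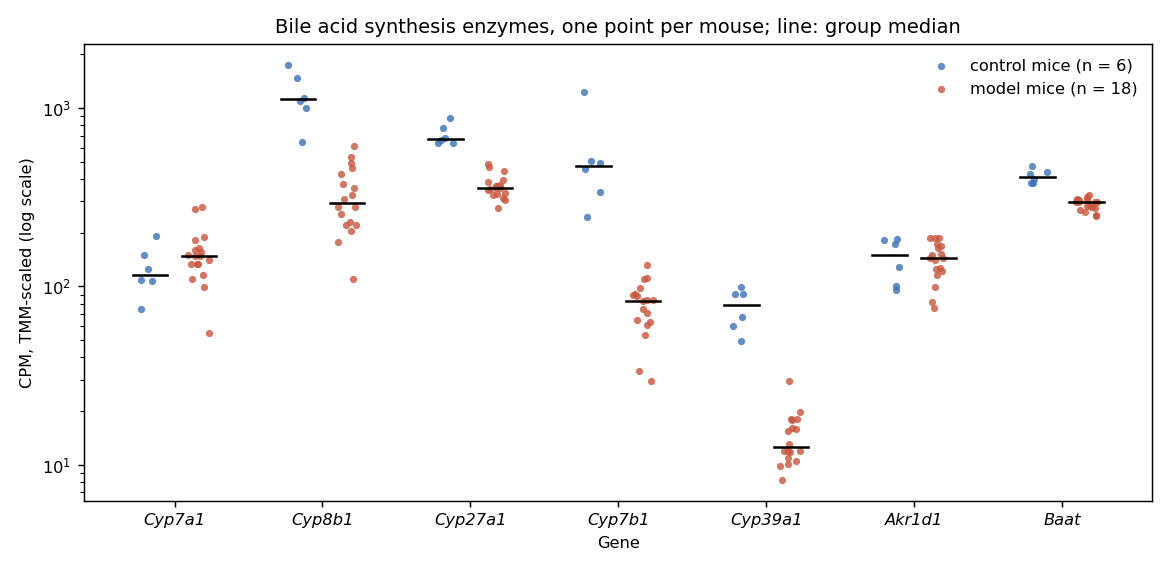
Level of each tested enzyme gene in CPM (TMM-scaled, log axis) with a point per mouse and a line at the group median, for 6 control (blue) and 18 model mice (red). Model mice lie wholly below the controls for Cyp8b1, Cyp27a1, Cyp7b1, Cyp39a1 and Baat, and the groups overlap for Cyp7a1 and Akr1d1.

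Cyp7a1, the rate-limiting hydroxylase of the classical route (ENSMUSG00000028240, chr4:6265612-6275633, minus strand, GRCm39), had overlapping levels in the groups and did not pass the test. Its level in controls was 74.5 CPM at the lowest, 116 at the median and 191 at the highest. In model mice the lowest was 54.4 (model mouse 10), the median 147 and the highest 279.6 (model mouse 12). The groups overlapped, with 15 of 18 model mice inside the control range, 2 above it and 1 below. The means were 126 ± 40.4 CPM (SD, n = 6) and 154 ± 54.0 CPM (SD, n = 18), a log2 fold change of 0.29 (SE 0.22, edgeR adjusted p = 0.277). With library totals alone in place of TMM factors it was called higher, at 0.62 (SE 0.23, edgeR adjusted p = 0.0199). Cyp7a1 transcription follows the daily clock in mouse liver. In a fit that held the clock index as a covariate, which called 44.3% of genes, its log2 fold change was 0.18 (SE 0.35).

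Cyp8b1, the 12-hydroxylase that directs synthesis towards cholic acid (ENSMUSG00000050445, chr9:121743422-121745371, minus strand, a single exon), was the most abundant member in controls and fell to 27.5% of the control level. Controls ranged from 649 CPM (control 6) over a median of 1119 to 1749. Model mice ranged from 110.1 CPM (model mouse 16) over a median of 294 to 610.0 (model mouse 14). The highest model mouse thus lay just below the lowest control in TMM-scaled CPM. Relative to library totals alone, model mouse 14 lay above control 6. It had 20827 Cyp8b1 counts in a total of 34162980, and control 6 had 19187 in 35359910. Means were 1185 ± 382 CPM (SD, n = 6) and 326 ± 135 CPM (SD, n = 18), and the log2 fold change was -1.86 (SE 0.24, edgeR adjusted p = 3.4e-07), a 3.64-fold lower level. Control 6, whose clock index was above that of every other mouse, had the lowest Cyp8b1 of the controls. In the fit with the clock index, which called 20.1% of genes lower, its log2 fold change was -1.497 (SE 0.36, edgeR adjusted p = 0.00161).

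The upstream sequence of Cyp8b1 is shown because it carries letters known as binding motifs of HNF4A and NR5A2, factors known to drive this gene, whose own transcripts are described further on. For comparison, those of Cyp27a1, which also fell, and of Akr1d1, which did not pass the test, are given beside it. Each is the run of 250 bases that ends at the base before the transcription start in RefSeq on GRCm38.p6, an older build than that of the gene positions above. The windows are chr9:121916306-121916555 (minus strand), chr1:74713285-74713534 (plus strand) and chr6:37529923-37530172 (plus strand), written 5′ to 3′, with the overlapping motif matches in capitals.
Cyp8b1: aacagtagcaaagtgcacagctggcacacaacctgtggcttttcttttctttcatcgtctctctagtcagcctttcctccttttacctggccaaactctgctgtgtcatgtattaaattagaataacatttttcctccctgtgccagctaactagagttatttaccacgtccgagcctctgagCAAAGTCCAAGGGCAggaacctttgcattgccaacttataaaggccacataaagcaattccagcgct
Cyp27a1: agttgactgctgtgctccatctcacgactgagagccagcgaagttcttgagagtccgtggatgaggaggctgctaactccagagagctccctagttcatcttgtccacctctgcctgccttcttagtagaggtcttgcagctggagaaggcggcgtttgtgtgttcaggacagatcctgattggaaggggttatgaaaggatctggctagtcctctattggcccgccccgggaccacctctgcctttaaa
Akr1d1: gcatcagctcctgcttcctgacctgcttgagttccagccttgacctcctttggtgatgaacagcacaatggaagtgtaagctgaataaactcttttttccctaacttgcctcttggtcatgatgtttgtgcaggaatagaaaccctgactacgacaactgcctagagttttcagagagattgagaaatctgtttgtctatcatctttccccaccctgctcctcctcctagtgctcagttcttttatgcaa
The Cyp8b1 window held the HNF4A letters CAAAGTCCA from 67 to 59 bases before the start and the NR5A2 letters CAAGGNCA from 60 to 53 bases before it. The matches overlap, and a TATA box (TATAAA) followed 31 to 26 bases before the start. Searched on both strands in 32851 windows of the same length, these letters occurred in 0.384%, 5.53% and 12.4% of windows. Neither the Cyp27a1 nor the Akr1d1 window held these letters, nor those of a D-box (TTATGTAA, 0.819% of windows) or an E-box (CACGTG, 6.02%). The same was true of the FXR inverted repeat, AGGTCA and its reverse complement spaced by 1 base (0.00609%), and of the STAT5 motif (TTCNNNGAA, 7.02%). A match or its lack describes these letters only. Windows were at hand for 4 of the 8 members, and that of Hsd3b7 held a STAT5 match.

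Cyp27a1, the mitochondrial side-chain hydroxylase that opens the alternative route (ENSMUSG00000026170, chr1:74752733-74777051, plus strand), fell to 51.5% of the control level. Its controls ranged from 633 CPM over a median of 667 to 876. Model mice ranged from 276 CPM (model mouse 16) over a median of 355 to 484 (model mouse 14). The model mice with the lowest and the highest Cyp27a1 were thus the same animals as for Cyp8b1. The log2 fold change was -0.96 (SE 0.09, edgeR adjusted p = 3.03e-09), from 708 ± 96.2 CPM (SD, n = 6) to 365 ± 55.1 CPM (SD, n = 18). With library totals alone it was -0.63, still called.

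Cyp7b1, the oxysterol hydroxylase that follows Cyp27a1 (ENSMUSG00000039519, chr3:18126114-18297502, minus strand), showed the largest fall of the 7 tested members, to 14.5% of the control level. Controls ranged from 245 CPM (control 6) over a median of 474 to 1231, and the highest value, in control 3, stood far above the next at 502. Model mice ranged from 29.5 CPM (model mouse 2) over a median of 82.9 to 131 (model mouse 8). Every model mouse was below the lowest control. Means were 544 ± 351 CPM (SD, n = 6) and 78.9 ± 26.0 CPM (SD, n = 18), with a log2 fold change of -2.79 (SE 0.25, edgeR adjusted p = 1.4e-09), or a 6.90-fold lower level. Without control 3 it was -2.37 (SE 0.21), and -2.69 (SE 0.38) when the clock index was in the fit.

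In mouse liver Cyp7b1 is known to be expressed more in males than in females. Of 7 genes with higher expression in male liver 6 fell, against 28.8% of all genes, among them Hsd3b5, a steroid dehydrogenase gene, from 80.6 to 1.23 CPM (log2 fold change -6.10). Mup20, a major urinary protein gene and the most abundant of the list, had a log2 fold change of -0.10 (edgeR adjusted p = 0.769). Among genes with higher expression in female liver, Cyp2b9 and Cyp2b13 rose and Cux2 and Acot3 fell. The labels do not state the sex of the mice. Transcripts of Y-linked genes were present in every library of both groups, as given above. Xist, a transcript of female cells, was at most 0.257 CPM in any library, so all mice had a male pattern.

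Cyp39a1, an oxysterol hydroxylase of a minor side branch (ENSMUSG00000023963, chr17:43978316-44062322, plus strand), fell to 19.1% of the control level. Controls ranged from 49.3 CPM over a median of 78.6 to 98.6. Model mice ranged from 8.20 CPM (model mouse 14) over a median of 12.6 to 29.4 (model mouse 10). Even the highest model mouse stayed well under the lowest control. Means were 76.0 ± 20.0 CPM (SD, n = 6) and 14.5 ± 5.02 CPM (SD, n = 18), and the log2 fold change was -2.39 (SE 0.18, edgeR adjusted p = 7.49e-11). It was -2.25 when the clock index was in the fit.

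Akr1d1, the reductase that gives the steroid ring its bent shape (ENSMUSG00000038641, chr6:37507108-37545750, plus strand), overlapped between the groups. Its controls ranged from 94.8 CPM over a median of 151 to 185. Model mice ranged from 75.7 CPM (model mouse 3) over a median of 144 to 188 (model mouse 17). Of the 18 model mice, 13 lay inside the control range, 3 above and 2 below. The log2 fold change was -0.03 (SE 0.17, edgeR adjusted p = 0.885), from 144 ± 41.3 CPM (SD, n = 6) to 141 ± 34.1 CPM (SD, n = 18). Its sign turned with the scaling, to 0.30 with library totals alone, and none of these values was called.

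Hsd3b7, the ring dehydrogenase that acts after the 7-hydroxylation step (ENSMUSG00000042289, chr7:127399776-127402974, plus strand), could not be read from the table. It had 56 counts in all 24 libraries, 17 in controls (1 to 4 each) and 39 in model mice (0 to 7 each), and was removed by the filter on low counts. Of its 2769 exonic bases only 23 lie outside the exons of other annotated genes. On the same strand 62.0% of its bases are shared with Gm49388, which had 0 counts, and on the other strand 62.4% are shared with 9430064I24Rik, which had 239 counts. Low counts were usual in this table for genes with over 95% of their bases shared on 1 strand. Hsd3b7, shared in part on each strand, is in neither class that follows. Of 549 named genes with over 95% of their bases shared on the same strand, 547 had at most 100 counts, against 7859 of 14856 genes with no shared base (52.9%). The same held for 125 of 126 genes shared to that extent on the other strand alone. No level of Hsd3b7 is therefore given.

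**Figure D2:**
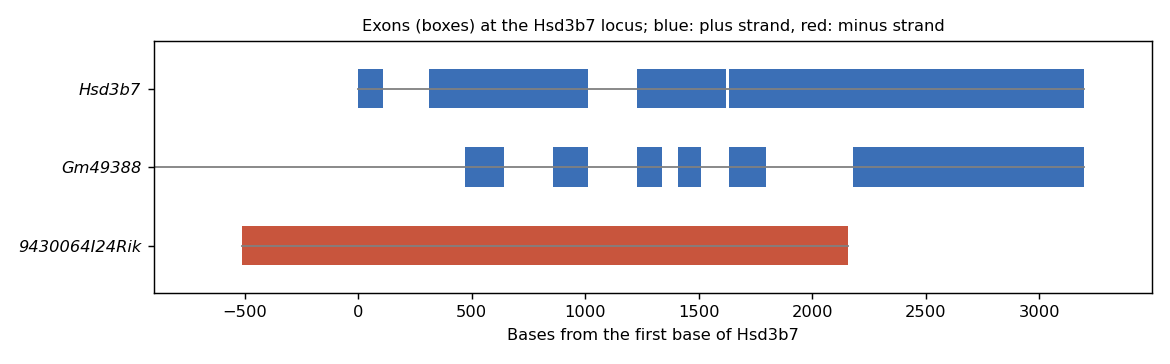
Exons (boxes) of Hsd3b7 and of the genes that overlap it, by distance in bases from the first base of Hsd3b7, with plus-strand genes in blue and the minus-strand gene in red. Between them Gm49388 and 9430064I24Rik cover all but 23 of the 2769 exonic bases of Hsd3b7.

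Baat, the enzyme that conjugates bile acids to taurine or glycine (ENSMUSG00000039653, chr4:49489422-49506557, minus strand), fell by the smallest amount of the 5 members that fell. Controls ranged from 378 CPM over a median of 413 to 473. Model mice ranged from 248 CPM (model mouse 2) over a median of 296 to 324 (model mouse 12). Both groups were narrow and did not overlap in TMM-scaled CPM. Relative to library totals alone they overlapped. Model mouse 17, with 12744 Baat counts in a total of 38610291, lay above control 6, with 11234 in 35359910. The log2 fold change was -0.53 (SE 0.06, edgeR adjusted p = 4.65e-08), from 416 ± 37.3 CPM (SD, n = 6) to 289 ± 22.0 CPM (SD, n = 18), or 69.5% of the control level. With library totals alone it was -0.20 (edgeR adjusted p = 0.00104). An antisense gene (ENSMUSG00000124115) shares 3.86% of the exonic bases of Baat and had 3.60% as many counts. The other 6 tested members share no exonic base with another gene. With the replicate number as a block, a fit that called 44.7% of genes and 19.4% of genes lower, the 5 members that fell were called again and Cyp7a1 and Akr1d1 were not. Numbers 7 to 18 occur among model mice alone, so in that fit the group difference rests on the mice numbered 1 to 6. The 5 were also called when any 1 of the 24 libraries was left out, control 3 and control 6 among them.

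**Figure D3:**
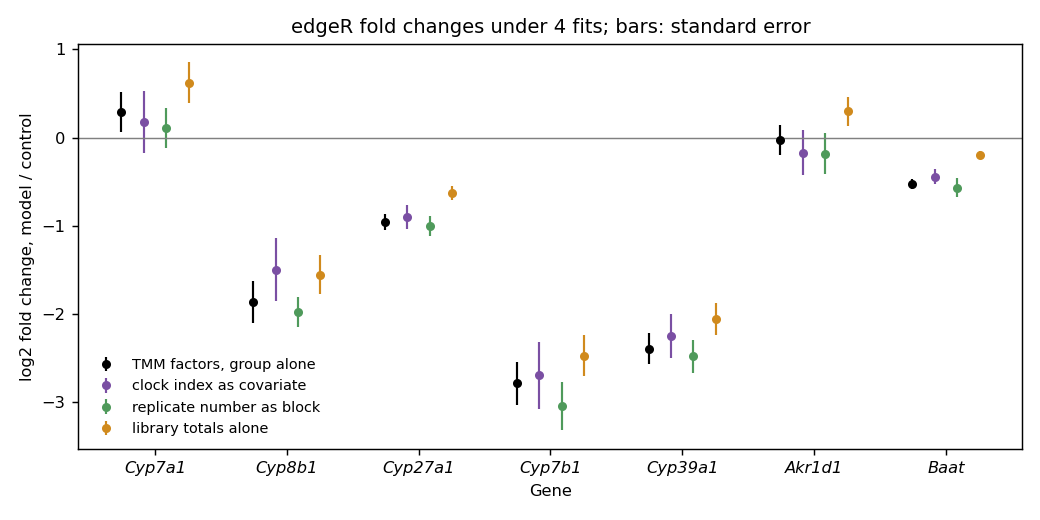
edgeR log2 fold change, model over control, of each tested enzyme gene under 4 fits (points, with bars of 1 standard error): TMM factors with the group alone, the clock index as a covariate, the replicate number as a block, and library totals alone. Cyp8b1, Cyp27a1, Cyp7b1, Cyp39a1 and Baat lie below 0 in each fit, while Akr1d1 changes sign with library totals alone, and Cyp7a1 reaches 0.62 there.

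Divided by exonic length, the levels of different genes can be set side by side, and the order of the enzymes differed between the groups. In controls the median level was 574 CPM per kilobase for Cyp8b1, 307 for Cyp27a1, 219 for Cyp7b1, 213 for Baat, 52.1 for Akr1d1, 27.9 for Cyp7a1 and 25.7 for Cyp39a1. Cyp8b1 was above Cyp27a1 in 6 of 6 controls, and Baat above Akr1d1 and Akr1d1 above Cyp7a1 in 6 of 6. Cyp27a1 was above Cyp7b1 in 5 of 6, Cyp7b1 above Baat in 4 of 6 and Cyp7a1 above Cyp39a1 in 5 of 6, and the ranges of each of these neighbours overlapped. In model mice the median was 164 CPM per kilobase for Cyp27a1, 152 for Baat, 150.5 for Cyp8b1, 49.7 for Akr1d1, 38.3 for Cyp7b1, 35.3 for Cyp7a1 and 4.11 for Cyp39a1. Cyp8b1, first in the controls, thus had the level of Baat, which was above it in 9 of 18 model mice. Cyp7b1, next after Cyp27a1 in the controls, had the level of Cyp7a1 and was above it in 9 of 18. Cyp27a1 was above Baat in 16 of 18 and Akr1d1 above Cyp7b1 in 13 of 18, while Cyp8b1 was above Akr1d1, and Cyp7a1 above Cyp39a1, in 18 of 18.

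The balance between the routes was measured by ratios of 2 genes within each library, which do not depend on how libraries are scaled. Each is a log2 ratio of reads per kilobase, and the groups were compared for 5 ratios by exact permutation, two-sided, over all 134596 ways to divide the animals, with Benjamini-Hochberg adjustment over the 5. All 5 ratios were lower in model mice, 4 of them against Cyp7a1. A transcript ratio is not a ratio of enzyme activities or of bile acids.

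For 12-hydroxylation against the first classical step, the log2 ratio of Cyp8b1 to Cyp7a1 was 4.33 ± 0.61 in controls (SD, n = 6) and 2.14 ± 0.80 in model mice (SD, n = 18). The median ratio went from 19.4 to 4.06. The difference of -2.18 was a 4.54-fold lower ratio (exact permutation adjusted p = 6.19e-05). Of 18 model mice 17 lay below every control, and model mouse 10, at 4.07, lay inside the control range, whose lowest value was 3.47 in control 6.

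For the alternative against the classical route, the log2 ratio of Cyp7b1 to Cyp7a1 went from 2.92 ± 0.75 (SD, n = 6) to -0.02 ± 0.78 (SD, n = 18). Cyp7b1 reads per kilobase were 8.58 times those of Cyp7a1 at the control median and 1.02 times at the model median. This 7.70-fold lower ratio was the largest difference of the 5 (-2.94, exact permutation adjusted p = 3.71e-05). It was below every control in 17 of 18 model mice, with model mouse 10 again the exception at 1.97 against 1.92 in control 6. The ratio of Cyp27a1 to Cyp7a1 was 2.34-fold lower (3.48 ± 0.47 in controls and 2.26 ± 0.49 in model mice, exact permutation adjusted p = 0.000139), with 16 of 18 model mice below every control.

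Within the alternative route, Cyp7b1 was lower relative to Cyp27a1, the step before it. This log2 ratio was -0.56 ± 0.82 in controls (SD, n = 6) and -2.28 ± 0.51 in model mice (SD, n = 18), a 3.29-fold lower ratio. All 18 model mice were below every control, and the exact p of 7.43e-06 is the smallest that this test can give (adjusted 3.71e-05). For conjugation, the log2 ratio of Baat to Cyp7a1 went from 2.88 ± 0.46 to 2.09 ± 0.50, a 1.73-fold lower ratio (exact permutation adjusted p = 0.0023), with 14 of 18 model mice below every control. The 4 ratios to Cyp7a1 share that gene and are not independent of each other.

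**Figure D4:**
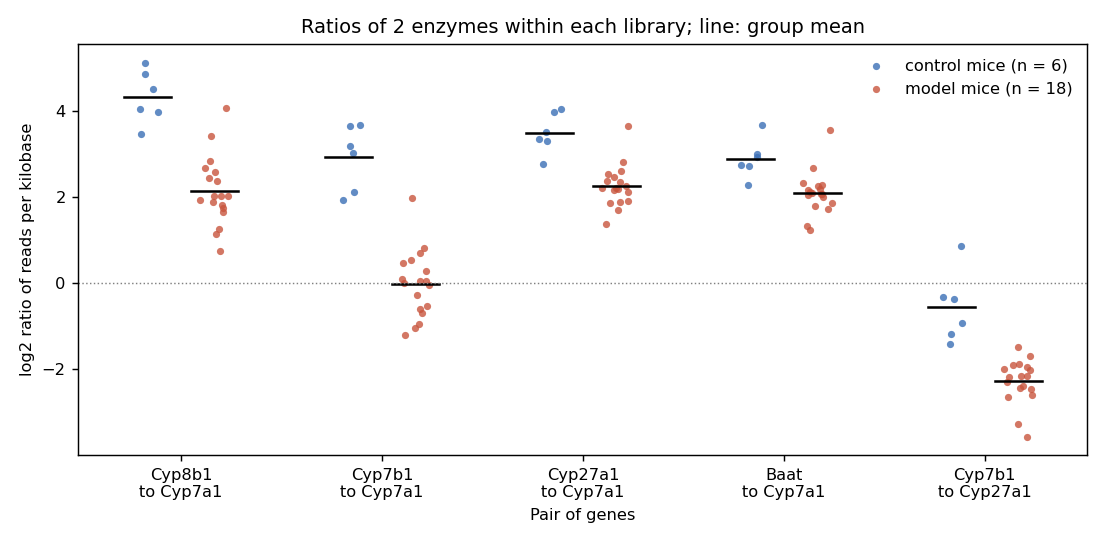
Log2 ratio of reads per kilobase of 2 enzyme genes within each library, with a point per mouse and a line at the group mean, for 6 control (blue) and 18 model mice (red). The dotted line at 0 marks equal reads per kilobase, where the mean Cyp7b1 to Cyp7a1 ratio of the model mice lies (-0.02).

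The model mice differed among themselves to an unequal degree over the enzymes. The highest model mouse exceeded the lowest 5.54-fold for Cyp8b1, 5.14-fold for Cyp7a1, 4.44-fold for Cyp7b1 and 3.58-fold for Cyp39a1. The same quotient was 2.48 for Akr1d1, 1.75 for Cyp27a1 and 1.31 for Baat. As coefficients of variation these were 41.4% for Cyp8b1, 35.1% for Cyp7a1 and 7.62% for Baat, with 32.2%, 32.1% and 8.96% in the controls. No difference in spread between the groups was shown for any of the 7 genes (two-sided exact permutation test of absolute deviations of log2 CPM from the group median, smallest p = 0.364, adjusted 0.972).

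Over the 18 model mice, pairs of enzymes varied together to different degrees, given here as a description of log2 levels that share a library and its scaling. Pearson's r was 0.85 between Cyp8b1 and Cyp27a1, 0.72 between Cyp7b1 and Baat, and 0.65 between Cyp7a1 and Akr1d1. Cyp39a1 had values from -0.20 to 0.15 with the other members. Model mouse 10 stood at the end of the main axis of variation among the model mice, with a gap of 26.1% of the range, and it had the lowest Cyp7a1 and the highest Cyp39a1 of the model mice. The other gaps on this axis were at most 13.7%, and the model mice were treated as a single group. The axis held 33.1% of the variance, and gaps on other axes were not examined.

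For 6 relations over the model mice, Pearson's r and Spearman's rho were tested by two-sided permutation (100000 resamples, Benjamini-Hochberg adjustment over the 6). Cyp7b1 varied with Hsd3b5, the male-predominant gene. In model mice Hsd3b5 ranged from 0.0909 CPM over a median of 0.426 to 9.68, its low end near the level of 3 counts in these libraries (0.0489 to 0.0888 CPM). Pearson's r was 0.75 (permutation adjusted p = 0.00264) and rho 0.89 (permutation p = 1e-05, the smallest that this number of resamples can give, adjusted 6e-05). Without the 2 mice farthest from the median of the x axis r was 0.81, and without model mouse 10 it was 0.73.

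Cyp8b1 was lower in the model mice with more Lgals3, the gene of galectin-3, a lectin abundant in activated macrophages. Lgals3 was 1.28 to 2.93 CPM in controls, and in model mice it ranged from 9.31 CPM (model mouse 10) over a median of 59.4 to 105. Pearson's r was -0.66 (permutation adjusted p = 0.0087) and rho -0.75 (permutation adjusted p = 0.00153). Without the 2 mice farthest from the median r was -0.63 (permutation p = 0.00773), and without model mouse 10 it was -0.72. Of 9046 genes 95% had an r below 0.68 with Cyp8b1, so positive values near this size were not rare. How many genes had an r as negative as that of Lgals3 was not counted. Whether the relation is particular to Lgals3 was thus not tested.

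**Figure D5:**
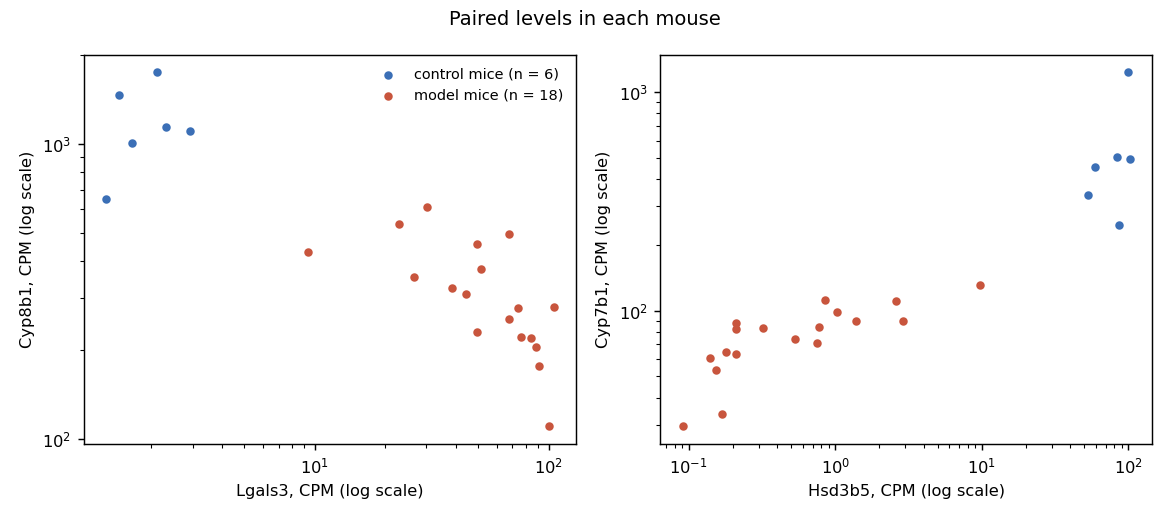
Left, Cyp8b1 against Lgals3, and right, Cyp7b1 against Hsd3b5, in CPM on log axes with a point per mouse (6 control mice blue, 18 model mice red). Among the model mice Cyp8b1 is lower where Lgals3 is higher (r = -0.66), and Cyp7b1 is higher where Hsd3b5 is higher (r = 0.75).

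The other 4 relations did not pass on Pearson's r. It was 0.38 between Cyp7b1 and Cyp27a1 (permutation adjusted p = 0.225), with rho 0.59 (permutation adjusted p = 0.0226), and without the 2 farthest mice r was 0.44, but it was 0.09 on library totals. Between Cyp7a1 and Nr0b2, its repressor, r was -0.34 and rho -0.32 (permutation adjusted p = 0.255 and 0.287), and r without the 2 farthest mice -0.30. Between Cyp7a1 and Cyp8b1 r was 0.04 and rho 0.15 (permutation adjusted p = 0.878 and 0.664), and r without the 2 farthest mice 0.06. Between Cyp7a1 and the clock output gene Dbp r was 0.05 and rho -0.10 (permutation adjusted p = 0.878 and 0.699). That last r rested on model mouse 10, without which it was -0.45 (permutation adjusted p = 0.133), and it was -0.46 without the 2 farthest mice.

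Among 9046 genes, those whose log2 level was most like a member's over the 18 model mice were listed as a description. For Cyp7a1 they were Akr1c20 (r = 0.82), Idh3a (0.79) and Colec12 (0.76), where 95% of genes had an r below 0.40. For Cyp8b1 they were Agtr1a and Hsd17b4 (both 0.89) and Brap (0.88), against 0.68 for 95% of genes. For Cyp7b1 they were the major urinary protein genes Mup7 and Mup12 (both 0.94) and Mup1 (0.93), against 0.57. Mup genes have near-identical copies, so their single values are uncertain.

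Other enzymes of bile acid synthesis moved in both directions. Of 11 listed genes 10 were tested: 6 fell, 2 rose and 2 did not pass, where 28.8% of all genes fell and 31.2% rose. Their median log2 fold change was -0.23 against 0.01 for all genes. Slc27a5, the ligase that activates bile acids for conjugation by Baat, fell from 1229 ± 177 to 814 ± 152 CPM (-0.59 on the log2 scale, SE 0.12, edgeR adjusted p = 7.82e-05), and was below all controls in 17 of 18 model mice. Acot8, a peroxisomal thioesterase, fell from 23.9 to 14.4 CPM (-0.73). Cyp46a1, a cholesterol hydroxylase best known from brain, whose product Cyp39a1 can use, rose from 2.21 ± 0.70 to 7.53 ± 2.39 CPM (1.78 on the log2 scale, SE 0.24, edgeR adjusted p = 5.92e-07), with all 18 model mice above all controls. Cyp2c70, which makes the muricholic acids of mice, was at 134 CPM in controls and 167 in model mice (0.31, edgeR adjusted p = 0.237). It was called higher with library totals alone (0.65) and with the replicate block (0.45, edgeR adjusted p = 0.0489). To complete the list, the peroxisomal genes Slc27a2, Hsd17b4, Scp2 and Abcd3 fell, Acox2 rose and Amacr did not pass, and Ch25h had 87 counts in all libraries and was not tested. With the clock index in the fit 3 of the list were lower and 1 higher, against 20.1% and 24.2% of all genes. On library totals 2 were lower and 4 higher, against 8.95% and 53.9% of all genes, and Slc27a5 was at -0.27 and Acot8 at -0.42.

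Of 16 listed regulators of bile acid synthesis 14 were tested, and 8 fell, none rose and 6 did not pass, where 28.8% of all genes fell and 31.2% rose. Their median log2 fold change was -0.30. Hnf4a, a nuclear receptor that drives Cyp8b1 and Cyp7a1, fell most, from 876 to 1442 CPM in controls to 475 to 737 CPM in model mice. Its log2 fold change was -0.93 (SE 0.09, edgeR adjusted p = 5.66e-09), and the groups did not overlap. With library totals alone it was -0.60, still called. Nr1h4, which encodes FXR, fell from 202 ± 23.9 to 147 ± 14.6 CPM (-0.46, SE 0.07, edgeR adjusted p = 3.71e-06), but was not called with library totals alone (-0.13). Klb, the partner of Fgfr4, fell from 45.2 ± 7.38 to 26.5 ± 8.33 CPM (-0.77, SE 0.19, edgeR adjusted p = 0.000922), but was not called when the clock index was in the fit (-0.56, edgeR adjusted p = 0.106). Nr5a2, which binds the NR5A2 motif, fell from 52.7 to 45.9 CPM (-0.20, edgeR adjusted p = 0.0189). It was not called with upper-quartile factors (-0.10), with the clock index (-0.18), with no filter (-0.18, edgeR adjusted p = 0.0749), at a threshold of 0.01, or with library totals alone, where it was 0.13.

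Nr0b2, which encodes SHP, did not pass but spread widely among the model mice. It was 19.9 to 26.3 CPM in controls and 14.0 to 55.7 CPM in model mice, of which 10 lay above all controls and 6 below all of them. The log2 fold change was 0.39 (SE 0.27, edgeR adjusted p = 0.217). It was called higher with the replicate block (0.50) and with library totals alone (0.71). Fgfr4 had 29.0 CPM in controls and 28.4 in model mice (-0.03, edgeR adjusted p = 0.750), and was called higher with library totals alone (0.30). Fgf15, which is made in the intestine, had 0 counts in every library, a count that allows up to 0.0489 to 0.107 CPM by library. The receptor gene Gpbar1 had 15 counts in all and was not tested. Among the rest, Rxra, Nr1i2 and Ppargc1a fell, and Nr1h3, Nr1i3, Mafg and Ppara did not pass. Of the exonic bases of Nr1i3 74.9% are shared with other genes. The count of regulators that fell was 5 with the clock index in the fit (20.1% of all genes). On library totals 3 fell and 4 rose (8.95% and 53.9% of all genes).

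Of 14 listed transporters of bile acids and bile lipids 13 were tested, and 4 rose, 4 fell and 5 did not pass, shares near those of all genes (31.2% higher and 28.8% lower). Their median log2 fold change was 0.07. Slco1a1, a sinusoidal uptake carrier, fell from 381 ± 126 to 24.3 ± 22.7 CPM (-3.98 on the log2 scale, SE 0.48, edgeR adjusted p = 2.04e-07), with all 18 model mice below all controls. Abcc4, a sinusoidal exporter, rose from 1.88 ± 0.50 to 8.62 ± 3.18 CPM (2.20 on the log2 scale, SE 0.24, edgeR adjusted p = 2.72e-08), with all 18 model mice above all controls. To complete the counts, the uptake carrier Slc10a1 (-0.85), the bile salt export pump Abcb11 (-0.32) and the phospholipid transporter Abcb4 (-0.39) fell. The sterol transporters Abcg5 (1.28) and Abcg8 (0.78) and the exporter subunit Slc51b (1.65) rose. Slc51b was low, at 0.42 CPM in controls and 1.34 in model mice (SE of the log2 fold change 0.53). It was above all controls in 12 of 18 model mice. Slc51a, with 217 counts in all libraries, was not tested. Abcb11 did not separate the groups, since no model mouse was below all controls. With the clock index in the fit 2 transporters were lower and 3 higher, against 20.1% and 24.2% of all genes. On library totals 2 were lower and 8 higher, against 8.95% and 53.9%.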

How the data were processed

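Liver RNA of 24 mice was sequenced, 1 library for each. The labels' protocols describe Trizol extraction, oligo(dT) capture and DNA nanoball sequencing, and name no strand-marking step. The deposited table holds the authors' raw read counts per Ensembl gene, with exon positions and summed exon length per the file headers. The build was GRCm39, per the submitters' processing notes. For the aligner, counting program, annotation release and strand setting the sources used here give nothing. The deposited length in bases served only for levels per kilobase.

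Symbols were found in a table of gene names for 51498 of 78298 IDs (99.6% of counts), and for 58 symbols shared by several IDs the ID with most counts kept the name. Groups came from the labels. The test was edgeR 4.0.16 in R 4.3.3 (TMM factors, default expression filter by group, robust quasi-likelihood, group alone, 17456 genes, Benjamini-Hochberg threshold 0.05). On counts simulated from the real means for this comparison (17456 genes) it recovered 79 of 100 with a 2-fold change and 65 of 100 with a 1.5-fold change, and 12 of its 156 calls were false. In the simulation no other gene was changed, while the real test called 60.0% of genes, so these rates may not hold for it. Ratios used a prior count of 0.5. CPM are TMM-scaled. Library totals were 31600129 to 58413267 counts, and 3 counts stand for 0.0489 to 0.107 TMM-scaled CPM. The chi-square of counts per degree of freedom was at least 19.1 in 168 pairs of libraries of a group, so none was a copy. Nothing says how mice were housed or processed together, so p-values measure the spread between these mice. No molecular identifiers are named.

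The members and all lists were chosen with earlier results of these data known. The rule for named genes took the 8 members, the 2 called genes with the largest change in each list of other synthesis genes, regulators and transporters, and Nr0b2, Nr1h4, Fgfr4, Klb, Nr5a2, Hnf4a, Slc27a5 and Cyp2c70. It also took the most abundant and most changed gene of each check list (clock, sex and cell types) and the 3 genes most like Cyp7a1, Cyp8b1 and Cyp7b1. Genes named to complete a list fall outside the rule and were chosen after their values were seen. Some list members are not reported here. The clock index is the mean standardized log2 CPM of 9 genes that peak with Dbp, of which 6 rose, minus that of 4 that peak with Arntl (Bmal1), of which 3 fell. Dbp rose from 10.0 to 63.9 CPM (40.5 in control 6) and Arntl fell from 20.4 to 3.54 CPM, Clock had a log2 fold change of -0.79, and Tef of 0.20 (not called). The check genes of each cell type, by abundance and change, had these log2 fold changes: Alb -0.88 and Cps1 -1.13 (hepatocyte), Mpeg1 3.30 and Gpnmb 8.81 (macrophage), Cd5l 3.12 (Kupffer), Dcn 1.26 and Col1a1 3.85 (stellate). For the others they were Stab2 1.46 and Cdh5 1.61 (endothelial), Ighm 2.53 and Cd8a 2.77 (lymphocyte) and Spp1 1.96 (cholangiocyte). Of the sex-chromosome genes Kdm5d was 0.31 (called) and Eif2s3y -0.04 (not called), and Xist was at 0.0279 to 0.257 CPM.

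Other settings tried were DESeq2 1.42.0, limma-voom (limma 3.58.1), upper-quartile and RLE factors, library totals alone, no filter, 1 CPM in 6 libraries, a threshold of 0.01, the replicate number as a block, the clock index as a covariate, a prior count of 5 for ratios, and each library left out in turn. Python 3.11.15 with scipy 1.17.1, numpy 2.4.6, pandas 2.3.3 and, for figures, matplotlib 3.10.9 did the rest. Promoter windows are RefSeq's on GRCm38.p6.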

Additional observations from a re-analysis of the deposited data

Results flagged for a closer look

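Cyp7b1 in control 3 stood apart from the other controls, at 1231 CPM against 502 in the next. Its gap to the next control was 0.74 of the range of the 6 controls, above the 0.625 of Dixon's 95% criterion. Chance exceeds that criterion in about 1 of 20 groups. The highest and the lowest control of every member were screened, in CPM and not on the log2 scale, where the gap was not examined. Without control 3 the log2 fold change of Cyp7b1 was -2.37 (SE 0.21, edgeR adjusted p = 3.72e-09), against -2.79 with it.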

How the results depend on the processing

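The 5 calls of lower expression (Cyp8b1, Cyp7b1, Cyp27a1, Cyp39a1, Baat) held in all 10 other settings and in all 24 fits that left out 1 library. Over the 24, log2 fold changes ranged from -1.995 to -1.73 for Cyp8b1, -2.94 to -2.37 for Cyp7b1, -0.99 to -0.89 for Cyp27a1, -2.50 to -2.31 for Cyp39a1 and -0.56 to -0.49 for Baat. Cyp7a1 ranged from 0.17 to 0.44 and was called only with library totals alone (0.62, edgeR adjusted p = 0.0199), the setting in which 1 member was higher. Akr1d1, never called, ranged from -0.13 to 0.054, and was 0.058 with upper-quartile factors and 0.30 on library totals. The 5 ratios kept direction and call with a prior count of 5 and in every leave-one-out comparison. With library totals alone r between Cyp7a1 and Cyp8b1 turned to -0.063 and the Cyp7a1 spread difference to 0.0070, r between Cyp7b1 and Cyp27a1 went from 0.38 to 0.094, and r between Cyp7a1 and Dbp was -0.45 without model mouse 10, an alternative chosen after seeing the data. Library totals alone called 53.9% of all genes higher and 8.95% lower, and among listed genes 2 lower and 4 higher of other synthesis, 3 and 4 of regulators, and 2 and 8 of transporters. With the clock index these were 3 and 1, 5 and 0, and 2 and 3. Regulators that fell numbered 5 with no filter, at a threshold of 0.01 and with upper-quartile factors, and 6 to 9 over the leave-one-out fits.

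The replicate numbers follow accession order and do not pair the mice: same-numbered control and model mice had correlations from -0.29 to 0.07, and 1 of 6 controls correlated best with its own number. With the replicate number as a block, 44.7% of genes were called and 19.4% called lower. The group difference in that fit rests on the mice numbered 1 to 6, since numbers 7 to 18 occur only among model mice. The log2 fold changes were 0.10 for Cyp7a1, -1.98 for Cyp8b1, -3.04 for Cyp7b1, -1.003 for Cyp27a1, -2.48 for Cyp39a1 and -0.57 for Baat, with no member's call changed, and 1 regulator was called higher. Depth limited what could be said of the listed genes with too few counts to be tested and of the lowest Hsd3b5 values.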
